A study of Mus musculus with 8 samples.

Results

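The genes described here encode the deacetylases outside class IIa, the lysine acetyltransferases and the core subunits of corepressor complexes, in gastrocnemius muscle of mice with and without Hdac5. They are 36 genes, chosen as a list by name and function, and all 36 were among the 19938 genes tested. RNA from this mixed, mainly fast calf muscle was measured on Affymetrix mouse gene arrays, 4 from Hdac5 knockout mice and 4 from wild type littermates. All animals were 30 weeks old, untreated and kept on low-fat chow, and the 2 groups differ in the Hdac5 genotype alone, per the labels. The labels cite a published line and do not give the extent of the deletion. They also do not tie each array to its own animal, so the p-values rest on the spread among arrays, which may be technical.

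Lysine acetylation of histone tails loosens chromatin and recruits reader proteins, and deacetylases reverse it. Zinc-dependent deacetylases fall into classes I, IIa, IIb and IV, while the sirtuins form class III and need NAD+. Class I enzymes other than HDAC8 work inside the SIN3, NuRD, CoREST and NCoR complexes. Class IIa enzymes such as HDAC5 have little catalytic activity of their own and repress MEF2-dependent muscle genes through partners that include HDAC3 bound to NCoR. The acetyltransferases p300 and CBP are the coactivators that take over when class IIa enzymes leave MEF2. These partners are therefore the genes next to HDAC5 in the same machinery, and the comparison asks whether their transcripts differed when Hdac5 was deleted.

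The targeted gene checks the labels. Hdac5 read between 8.31 and 8.39 on the 4 knockout arrays and between 9.76 and 9.94 on the 4 wild type arrays, on the log2 scale of the deposited signal, so the genotypes were far apart. It fell by 1.497 (SE 0.059, limma adjusted p = 1.74e-07, exact 2-sided permutation p = 0.0286, the smallest that 4 against 4 can give). Between the 8 arrays the correlations over all probe sets were 0.988 to 0.995, and no pair held identical values. The fibre genes fixed as a tissue check, Acta1, Ckm and Myh4 among 10, all lay at or above the 99.8th percentile of signal, so the arrays read as skeletal muscle.

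No member passed the test. In limma, with p-values adjusted over all 19938 genes, 0 members passed at an adjusted p under 0.05, where 0.0652% of all genes did. Their adjusted p-values lay between 0.487 and 0.997. At an unadjusted limma p under 0.05, 2 members were higher in knockout (all genes: 4.72%) and 0 were lower (all genes: 3.18%). All 4 knockout arrays lay above all 4 wild type arrays for 2 members (all genes: 2.91%) and below them for 1 member (all genes: 1.99%). These counts are near the shares over all genes, and they are small enough for 1 array to move them. The 2 members higher at an unadjusted p became 0 without knockout sample 2 and 1 without knockout sample 4, wild type sample 3 or wild type sample 4. The 2 members with all knockout arrays above became 4 without knockout sample 3, and the 1 member with all below became 2 when knockout sample 1 or wild type sample 3 was dropped.

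The differences were small in size. The largest was 0.16 log2 units upward, for Hdac11, and the largest downward was -0.094, for Sirt2. Of the 36 differences, 32 lay between -0.1 and 0.1, as did 74.5% of all genes. For 35 members the 95% interval of the difference stayed within 0.3 log2 units of 0, that is within 0.812 to 1.23 times the wild type signal, which held for 82.0% of all genes. The exception was Hdac11, whose interval ran from -0.07 to 0.39. Both limits, 0.1 and 0.3, were set after the values were known.

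**Figure D1:**
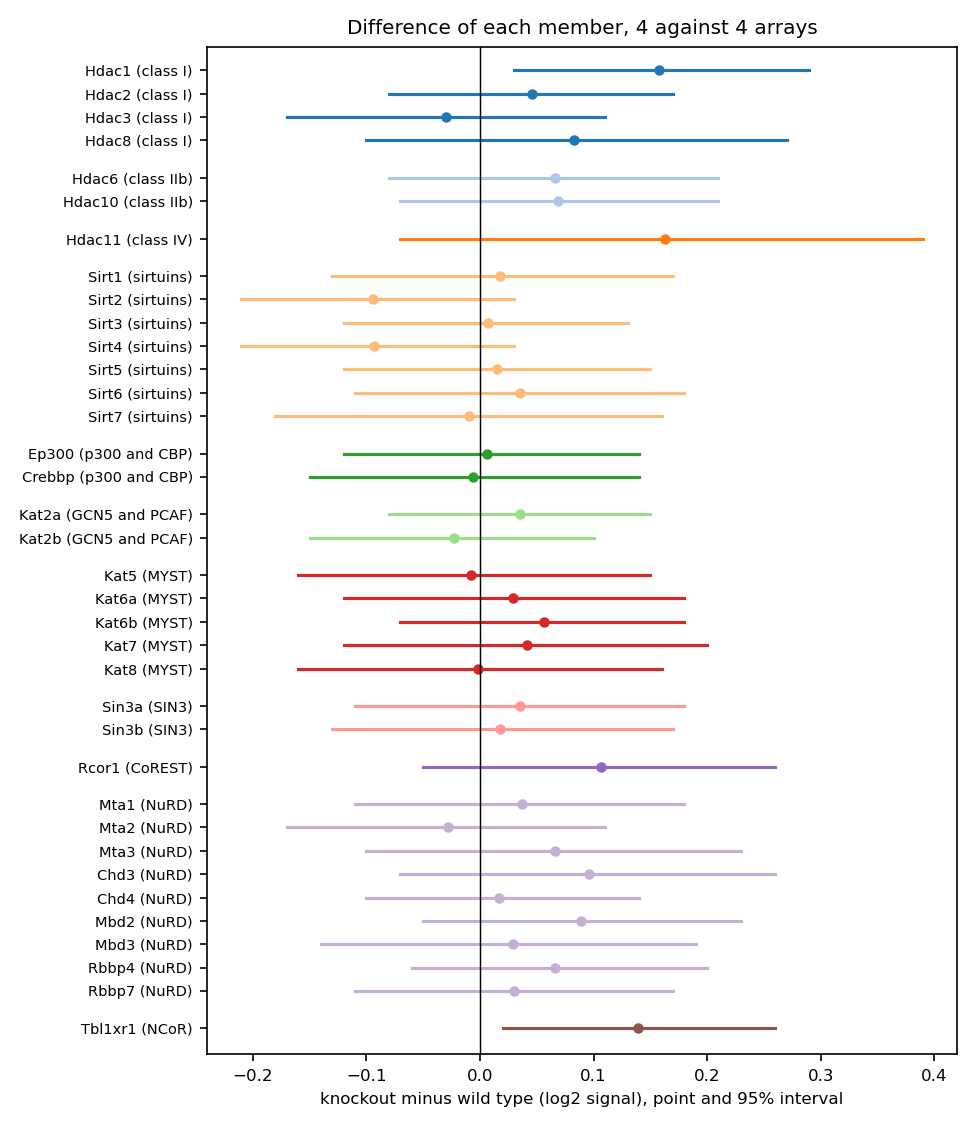
Difference between knockout and wild type in log2 signal (horizontal axis) for each of the 36 members (rows, coloured by role group), with points for the estimate and lines for limma's 95% interval, 4 arrays per genotype. All points lie between -0.094 and 0.16, and the intervals of Hdac1 and Tbl1xr1 alone leave out 0.

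Members were bright and varied little. Their signal, the mean of 8 arrays, ranked between the 44.1th percentile of genes (Sirt7) and the 97.4th (Mbd2), with a median of 80.8, and 35 of the 36 lay above the median gene. Probe sets differ in how well they bind, so this ranks signals, not transcript numbers. The SD within a genotype, pooled over both, had a median of 0.0822 among members and 0.101 among all genes, and it was under the median gene for 26 members. Kat2a varied least (0.0291) and Hdac11 most (0.186).

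Many members have start sites rich in CpG dinucleotides, a trait of widely expressed genes. RefSeq promoter windows (GRCm38.p6, 250 bases before to 50 after a start) were matched by symbol for 29 members, as 37 windows of 300 bases. They held a median of 22 CpG dinucleotides per window against 7 over all 32817 windows, which include those of noncoding genes. The GC box GGGCGG, read on both strands, was present in 75.7% of the members' windows and 35.6% of all windows. Median GC content was 61.7% in the members' windows and 52.7% in all windows, and the 10-base MEF2 consensus is rich in A and T. That consensus, also read on both strands, matched 0 of the 37 windows and 3.19% of all windows. With 37 windows, 0 is near that share. These are letter matches in short windows and say nothing of binding. The 250 bases before the start are printed here for some members, with each CpG in capitals. They are Tbl1xr1 and Sirt4, whose genotypes did not overlap, and Hdac11, the member with the widest spread. Hdac1, whose genotypes also did not overlap, was not matched to a window.

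Tbl1xr1 (chr3:22076402-22076651, plus strand, 15 CpG): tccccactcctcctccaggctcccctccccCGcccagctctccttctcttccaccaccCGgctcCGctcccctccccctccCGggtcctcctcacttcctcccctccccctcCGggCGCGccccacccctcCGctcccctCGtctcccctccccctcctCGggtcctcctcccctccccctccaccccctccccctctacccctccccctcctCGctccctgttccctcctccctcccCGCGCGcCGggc
Sirt4 (chr5:115484298-115484547, minus strand, 14 CpG): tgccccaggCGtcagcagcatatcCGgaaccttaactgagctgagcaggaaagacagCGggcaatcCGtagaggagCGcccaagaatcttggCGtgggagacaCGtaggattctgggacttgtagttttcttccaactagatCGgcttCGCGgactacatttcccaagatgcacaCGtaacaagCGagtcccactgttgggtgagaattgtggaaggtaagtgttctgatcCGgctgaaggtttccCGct
Hdac11 (chr6:91156565-91156814, plus strand, 17 CpG): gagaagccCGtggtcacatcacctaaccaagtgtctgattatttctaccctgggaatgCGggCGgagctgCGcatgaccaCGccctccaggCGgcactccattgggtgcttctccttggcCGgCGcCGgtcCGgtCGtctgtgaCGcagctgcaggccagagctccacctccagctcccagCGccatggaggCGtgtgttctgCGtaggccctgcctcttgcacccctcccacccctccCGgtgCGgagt

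These 3 stretches hold 14 to 17 CpG dinucleotides each. With the 50 bases after the start included, the windows of Tbl1xr1 and Hdac11 contain the GC box and that of Sirt4 does not.

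Among the class I deacetylases, Hdac1 had the smallest p. It read 10.12, 10.12, 9.97 and 10.09 on knockout arrays 1 to 4 and 9.97, 9.91, 9.94 and 9.85 on wild type arrays 1 to 4. All knockout arrays were above all wild type arrays, but the closest pair, knockout sample 3 and wild type sample 1, were only 0.00768 apart. The difference was 0.16 (SE 0.058, 95% interval 0.03 to 0.29), a ratio of 1.12, with an unadjusted limma p of 0.0195 and an adjusted p of 0.487. Its second probe set was higher by 0.09, at 9.78 ± 0.08 against 9.69 ± 0.03 (SD, n = 4 each), and there the genotypes overlapped. Over 16 other ways of processing or leaving out arrays, the difference of Hdac1 ranged from 0.118 to 0.191. Its limma p was under 0.05 unadjusted in 14 of them, and its limma adjusted p-values were 0.35 to 0.833.

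Hdac2, the close paralogue that shares complexes with HDAC1, was at 11.13 ± 0.07 in knockout and 11.08 ± 0.04 in wild type (SD, n = 4 each). Hdac3, the enzyme of the NCoR complex through which class IIa proteins act, was at 11.02 ± 0.04 and 11.05 ± 0.10, and its difference of -0.03 had a 95% interval from -0.17 to 0.11. Hdac8, a class I enzyme that works on cohesin, was at 8.88 ± 0.04 and 8.80 ± 0.19. Its 4 knockout arrays spanned only 8.85 to 8.94, while wild type sample 4 stood at 8.53 below 8.86 to 8.95 on the other wild type arrays. Without that array the difference of Hdac8 went from 0.083 to -0.007. Hdac2, Hdac3 and Hdac8 overlapped between genotypes.

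The class IIb enzymes were a pair with small differences. Hdac10, a polyamine deacetylase, read 9.23, 9.21, 9.21 and 9.06 in knockout and 9.23, 9.09, 9.07 and 9.04 in wild type samples, an overlap, with a difference of 0.07 (SE 0.064, limma adjusted p = 0.851). Hdac6, the cytoplasmic deacetylase of tubulin, differed by 0.07 with a 95% interval from -0.08 to 0.21.

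Hdac11, the sole class IV enzyme, was the most variable member. It read 8.61, 8.38, 8.56 and 8.44 in knockout samples 1 to 4 and 8.41, 8.63, 8.20 and 8.09 in wild type samples 1 to 4. The highest and the lowest values were both in wild type muscle, so the genotypes overlapped fully. The difference of 0.16 (SE 0.106, limma adjusted p = 0.768) was 0.262 without wild type sample 2 and 0.083 without wild type sample 4.

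The 7 sirtuins, NAD+-dependent enzymes spread over nucleus, cytoplasm and mitochondria, split into 4 with a higher and 3 with a lower knockout mean, with a median difference of 0.0069. The count of 4 rests on wild type sample 4, and with that array dropped 0 of the 7 had a higher knockout mean. Sirt4, a mitochondrial sirtuin, read 8.72, 8.63, 8.77 and 8.73 in knockout and 8.78, 8.80, 8.85 and 8.79 in wild type samples. Every knockout array was below every wild type array, by at least 0.0134. After quantile normalization the genotypes of Sirt4 overlapped, as 0 members then had all knockout arrays below. The difference was -0.09 (SE 0.055, 95% interval -0.21 to 0.03), a ratio of 0.937, with an unadjusted p of 0.113 and an adjusted p of 0.733 in limma.

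Sirt2, a mostly cytoplasmic sirtuin, differed by -0.094, at 11.80 ± 0.04 against 11.90 ± 0.05 (SD, n = 4 each), although wild type sample 3 (11.82) lay below knockout samples 1 and 4 (11.84 and 11.83). Sirt1, which deacetylates PGC-1alpha in muscle, differed by 0.018 (95% interval -0.13 to 0.17). Sirt3, the main mitochondrial deacetylase, differed by 0.007 (95% interval -0.12 to 0.13), and Sirt5, the mitochondrial desuccinylase, by 0.015. Sirt6 and Sirt7, nuclear sirtuins, differed by 0.035 and -0.01. Sirt7 was at 7.75 ± 0.08 in knockout and 7.76 ± 0.15 in wild type muscle (SD, n = 4 each).

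**Figure D2:**
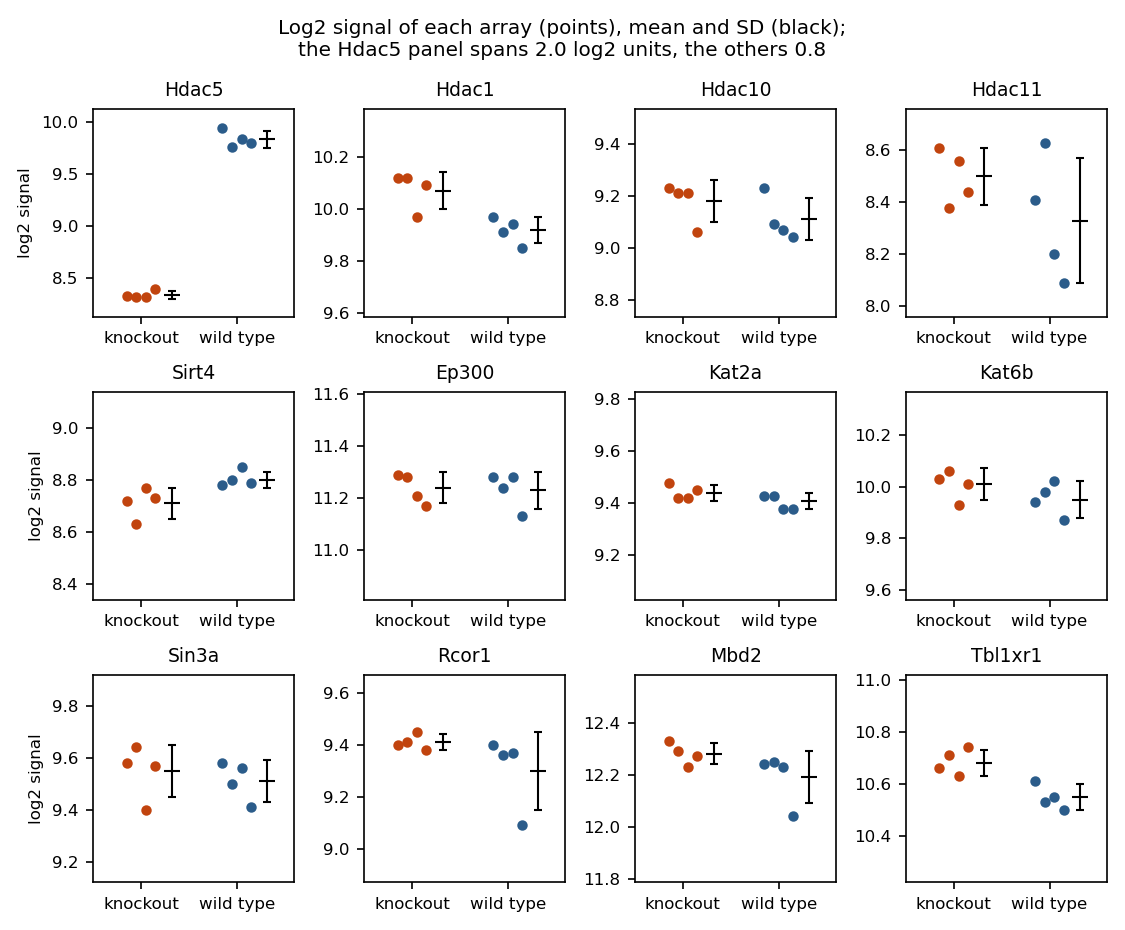
Log2 signal (vertical axes) on each array (points, samples 1 to 4 from left to right) for Hdac5 and for the 11 members of smallest p in their role group or with an unadjusted limma p under 0.05, with the mean and SD of 4 arrays in black. Hdac5 is separated by more than a log2 unit on an axis of 2.0 units, whereas on axes of 0.8 units the members overlap or nearly touch.

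The coactivator acetyltransferases p300 and CBP differed by less than 0.01 log2 units, in opposite directions. Ep300 read 11.29, 11.28, 11.21 and 11.17 in knockout and 11.28, 11.24, 11.28 and 11.13 in wild type samples, a full overlap. It differed by 0.006 (SE 0.060, 95% interval -0.12 to 0.14, limma adjusted p = 0.993), and it was below 0 when 1 of 3 arrays was dropped, at -0.029 (wild type sample 4), -0.013 (knockout sample 1) and -0.007 (knockout sample 2). Crebbp, which encodes CBP, differed by -0.006 (95% interval -0.15 to 0.14).

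GCN5 and PCAF, the catalytic subunits of the SAGA and ATAC coactivator complexes, are encoded by Kat2a and Kat2b. Kat2a read 9.48, 9.42, 9.42 and 9.45 in knockout and 9.43, 9.43, 9.38 and 9.38 in wild type samples, the tightest values of the list, with overlap and a difference of 0.035 (SE 0.052, 95% interval -0.08 to 0.15, limma adjusted p = 0.914). Kat2b differed by -0.02, at 10.43 ± 0.08 against 10.45 ± 0.02 (SD, n = 4 each).

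The 5 MYST enzymes had differences between -0.008 and 0.056, with 3 above 0, or 1 with wild type sample 4 dropped. Kat6b, a histone H3 acetyltransferase, had the smallest p, at 10.03, 10.06, 9.93 and 10.01 in knockout against 9.94, 9.98, 10.02 and 9.87 in wild type samples, with overlap and a difference of 0.06 (SE 0.059, limma adjusted p = 0.87). Its paralogue Kat6a differed by 0.029. Kat7, the enzyme of the HBO1 complex, differed by 0.041, Kat5, which encodes TIP60, by -0.008, and Kat8, which encodes the histone H4 acetyltransferase MOF, by -0.002. In this group the arrays of 1 genotype spanned more than the genotypes differed. Kat8 ranged from 10.11 to 10.38 within knockout samples and from 10.19 to 10.38 within wild type samples.

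The scaffolds of the SIN3 complex had small differences. Sin3a read 9.58, 9.64, 9.40 and 9.57 in knockout and 9.58, 9.50, 9.56 and 9.41 in wild type samples, with a difference of 0.035 (SE 0.067, limma adjusted p = 0.936). Sin3b differed by 0.018, with a 95% interval from -0.13 to 0.17. Both genes overlapped between genotypes.

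Rcor1, the scaffold of the CoREST complex that joins HDAC1 or HDAC2 to the demethylase LSD1, read 9.40, 9.41, 9.45 and 9.38 in knockout and 9.40, 9.36, 9.37 and 9.09 in wild type samples. The genotypes overlapped, and wild type sample 4 alone was low. The difference of 0.11 (SE 0.073, limma adjusted p = 0.779) was 0.034 without that sample.

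NuRD joins class I deacetylases to chromatin remodelling ATPases, and 8 of its 9 members had a higher knockout mean, all with overlap. With wild type sample 4 dropped the count was 5 of 9, as Mta1, Chd4 and Mbd3 turned lower. Mbd2, which binds methylated DNA, had the smallest p, at 12.33, 12.29, 12.23 and 12.27 in knockout and 12.24, 12.25, 12.23 and 12.04 in wild type samples. Its difference of 0.09 (SE 0.063, limma adjusted p = 0.789) was 0.039 without wild type sample 4. Mbd3, the subunit that takes the place of MBD2 in other NuRD complexes, differed by 0.029, with wild type sample 4 at 10.24 and the other 7 arrays between 10.48 and 10.59, and by -0.049 without that array.

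The remodelling ATPases Chd3 and Chd4 differed by 0.10 and 0.017, or by 0.039 and -0.014 with wild type sample 4 dropped. Chd4 was at 10.88 ± 0.02 in knockout and 10.86 ± 0.07 in wild type muscle, and Chd3 at 8.60 ± 0.07 and 8.50 ± 0.15 (SD, n = 4 each). The scaffold genes Mta1, Mta2 and Mta3 differed by 0.037, -0.028 and 0.07, and that of Mta1 was -0.003 with wild type sample 4 dropped. A second, dimmer probe set of Mta3 went the other way, by -0.099, with overlap. The histone-binding subunits Rbbp4 and Rbbp7 differed by 0.07 and 0.03, and the second probe set of Rbbp7 gave -0.051.

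Tbl1xr1, the subunit of the NCoR complex that serves in the exchange of corepressors for coactivators, was the other member with an unadjusted limma p under 0.05. It read 10.66, 10.71, 10.63 and 10.74 in knockout and 10.61, 10.53, 10.55 and 10.50 in wild type samples. All knockout arrays lay above all wild type arrays, by at least 0.0172. The difference was 0.14 (SE 0.056, 95% interval 0.02 to 0.26), a ratio of 1.10, with an unadjusted p of 0.0279 and an adjusted p of 0.543 in limma. Its second probe set gave 0.046, at 9.96 ± 0.09 against 9.91 ± 0.12 (SD, n = 4 each), with overlap. The difference kept its sign over the 16 alternatives, from 0.093 to 0.16, and reached an unadjusted p under 0.05 in 9 of them.

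Across the list the knockout mean was higher for 27 members and lower for 9, while 51.4% of all genes were higher, and the median difference was 0.03 against 0.003 over all genes. Wild type sample 4 moved with this split. It held the lowest value of the 8 arrays for 22 of the 36 members, where it was the lowest array for 23.3% of all genes, and it held the highest value for 0 members, where it did so for 18.8% of all genes. At the other end, knockout sample 1 held the highest value for 16 members (17.4% of all genes) and the lowest for 0 (20.1% of all genes). Without wild type sample 4 the count became 16 higher and 20 lower, with a median difference of -0.005, and 11 members changed sign.

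Wild type sample 4 also differed in the shape of its signal. Its upper quartile over all probe sets was 9.24, against 9.28 to 9.37 on the other 7 arrays, and the weight limma gave it was 0.439, the lowest of the 8. Knockout sample 4 was next on both, with an upper quartile of 9.28 and a weight of 0.627. The members' median deviation from their mean of 8 arrays was 0.001 on knockout sample 4 and -0.117 on wild type sample 4. Quantile normalization gives all arrays the same distribution. After it, wild type sample 4 still held the lowest value for 18 of the 36 members (18.2% of all genes), with a median deviation of -0.068. Knockout sample 1 then held the highest value for 8 members (14.8% of all genes), and its median deviation went from 0.057 to 0.017. The counts were again 27 higher and 9 lower, although Sirt3 turned lower and Sirt7 higher. What sets wild type sample 4 apart was not tested.

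**Figure D3:**
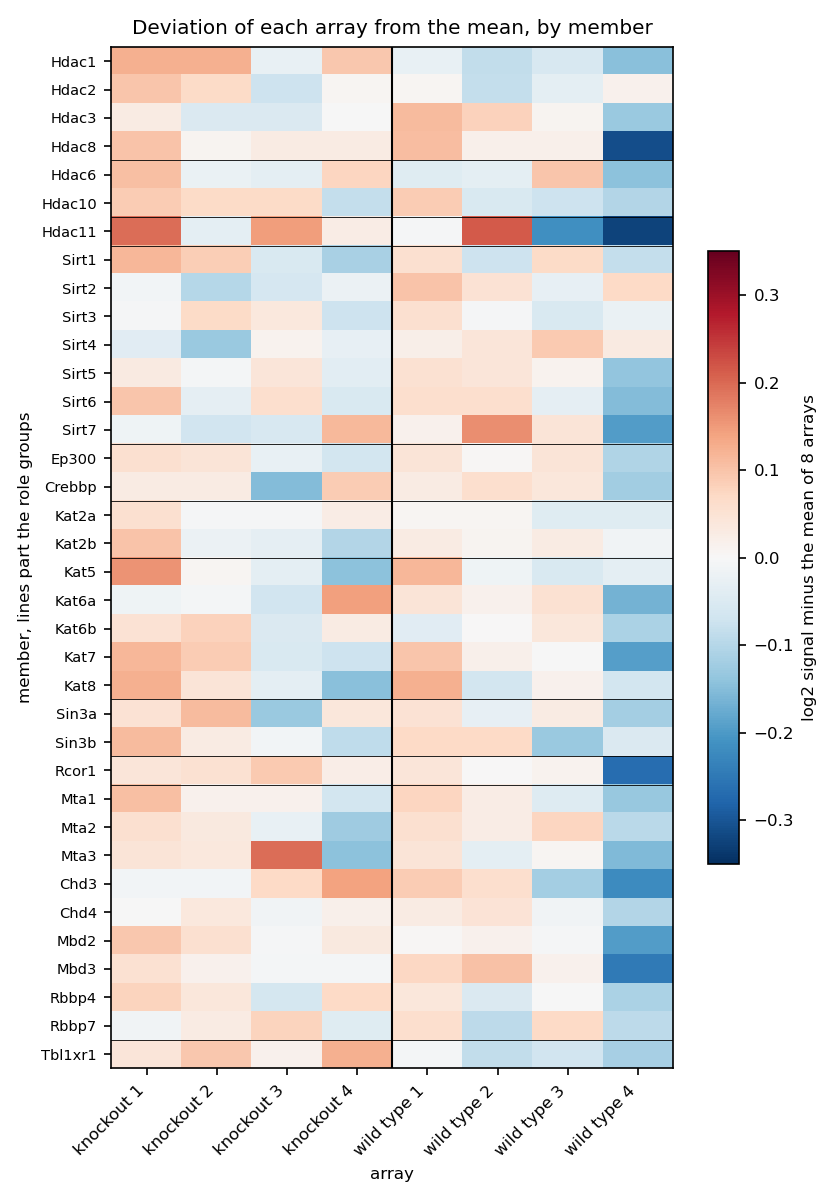
Deviation of each array (columns) from the mean of the 8 arrays, in log2 signal (colour), for the 36 members (rows, with lines between role groups). Wild type sample 4 is below the mean for 33 members, and knockout sample 1 is above it for 28.

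**Figure D4:**
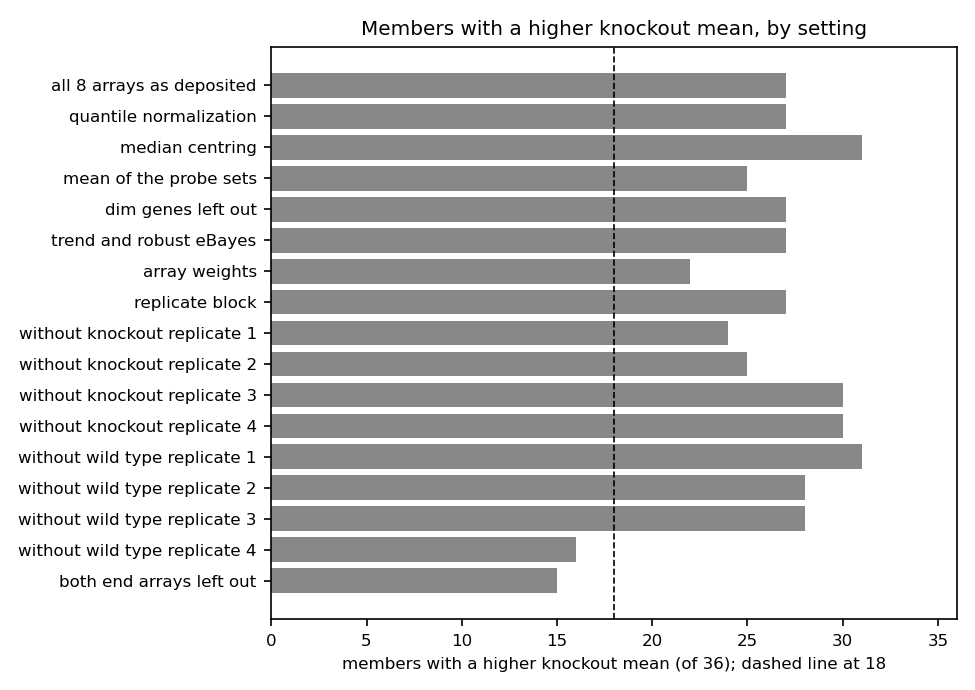
Number of members, of 36, with a higher mean in knockout (bars) for all 8 arrays as deposited and for each of 16 alternatives, with a dashed line at 18. The count is 22 to 31 except without wild type sample 4 (16) and without both that array and knockout sample 1 (15).

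Related genes, 96 written as 10 lists, were read from the same fit. They are further subunits of these and other acetylation complexes, other acetyltransferases, bromodomain readers, and genes of acetyl donor and NAD supply. Of the 96, 92 were among the tested genes, and the rest were not analysed here. In limma 0 of the 92 passed over all genes (all genes: 0.0652%). At an unadjusted p under 0.05, 6 were higher and 4 lower, which is 6.52% and 4.35% of the list beside 4.72% and 3.18% of all genes. The median difference of the list was 0.03 (all genes: 0.003), with 64 of 92 above 0, which is 69.6% beside 51.4% of all genes. The 6 higher became 3 when knockout sample 1 or wild type sample 4 was dropped and 11 when knockout sample 4 was. The 4 lower became 2 when wild type sample 1 was dropped, or either of knockout samples 1 and 4.

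The smallest p in those lists belonged to Tada2a, the adaptor that links GCN5 or PCAF to the rest of the ATAC complex. It read 9.95, 10.12, 10.04 and 10.15 in knockout and 10.38, 10.36, 10.58 and 10.51 in wild type samples, so every knockout array was lower. The difference was -0.394 (SE 0.069, 95% interval -0.55 to -0.24), a ratio of 0.761, with a limma adjusted p of 0.0763, short of the threshold. It passed under 2 of the 16 alternatives, with dim genes left out (adjusted p = 0.0488) and with a trended, robust eBayes (adjusted p = 0.0308), and the adjusted p was up to 0.337 in the rest. The enzymes that this adaptor serves, Kat2a and Kat2b, had differences of 0.035 and -0.023. Tada2a lies on the chromosome that carries Hdac5, 344 tested genes away in the RefSeq gene order. The related genes nearer to Hdac5, Kansl1 (46), Acly (67) and Msl1 (134), had differences of -0.011, 0.1 and 0.14. Whether place on the chromosome bears on these differences was not tested.

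The other SAGA and ATAC subunits measured, among them Tada3, Tada2b and Trrap, had differences from -0.045 (Supt3) to 0.125 (Taf5l), each with overlap. Of the enzymes that supply acetyl groups, Acss1, the mitochondrial acetyl-CoA synthetase, was at 10.86 ± 0.10 against 10.55 ± 0.11 (SD, n = 4 each), a difference of 0.31 (SE 0.072, limma adjusted p = 0.198) with no overlap. Esco1, an acetyltransferase of cohesin, differed by 0.318 (SE 0.101, limma adjusted p = 0.405), with knockout samples from 9.07 to 9.62 and wild type samples from 8.92 to 9.11.

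The remaining named genes belong to the MYST and MIER complexes. Morf4l2, a chromodomain-related subunit, differed by -0.163 (SE 0.054, adjusted p = 0.447), and Jade1, a scaffold of the HBO1 complex, by 0.184 (SE 0.066, adjusted p = 0.469), each with no overlap. Mier1, a scaffold for HDAC1 and HDAC2, differed by 0.20 (SE 0.081, adjusted p = 0.543), with overlap. These adjusted p-values are from limma over all genes.

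**Figure D5:**
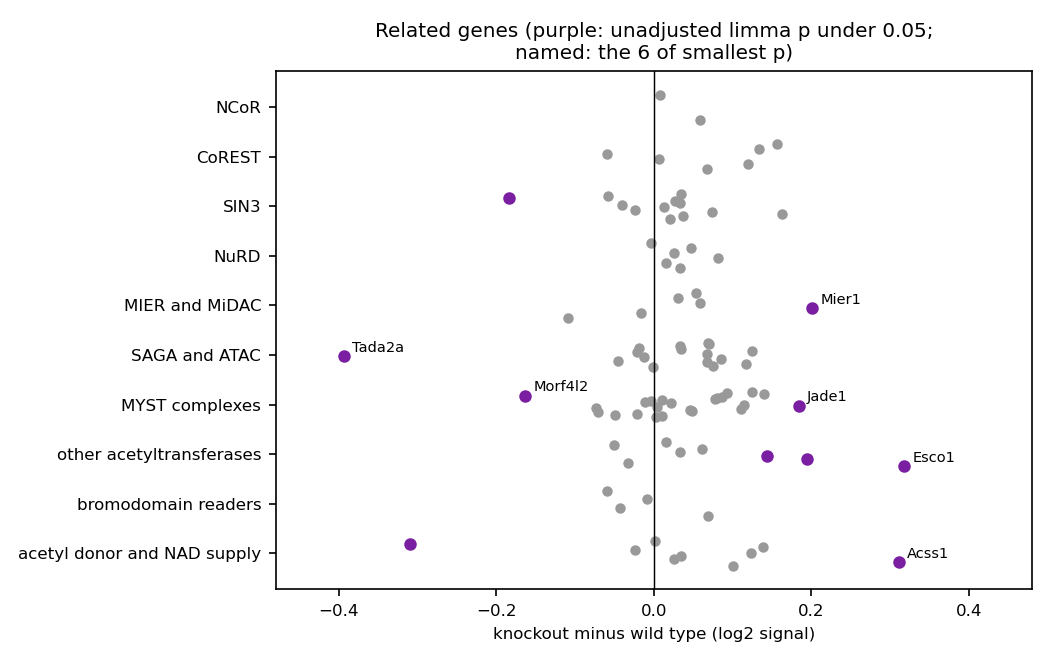
Difference between knockout and wild type in log2 signal (horizontal axis) for 92 related genes (points), grouped by list (rows). The 10 purple points have an unadjusted limma p under 0.05, the 6 of smallest p are named, and Tada2a lies farthest out at -0.394.

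The chromosome that carries Hdac5 holds 4 members. Kat2a, 60 tested genes from Hdac5, was the nearest, followed by Kat7 (229), Sirt7 (284) and Chd3 (680). Their differences of 0.035, 0.041, -0.01 and 0.10 were within the range of the other members.

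The muscle holds several cell types, and in whole tissue fewer cells of a type and less RNA per cell cannot be told apart. Markers of 10 cell types were read beside the members. All 10 muscle fibre markers had a lower knockout mean, with a median difference of -0.025 and a mean level of 14.23 to 14.28 in knockout and 14.26 to 14.29 in wild type samples. All 10 macrophage markers had a higher knockout mean, with a mean level of 8.64 to 9.01 in knockout and 8.32 to 8.71 in wild type samples, and so did all 8 fibroblast markers (10.67 to 11.05 against 10.53 to 10.85). All 7 tendon markers had a lower knockout mean (8.84 to 9.19 against 9.09 to 9.46), as did the 5 of 8 Schwann cell markers that were measured (8.11 to 8.37 against 8.28 to 8.58). At an unadjusted limma p under 0.05, 8 of the 10 macrophage and 4 of the 8 fibroblast markers were higher (all genes: 4.72%). At the same p, 4 of the 7 tendon and 1 of the 5 Schwann cell markers were lower (all genes: 3.18%). Of the smooth muscle markers 2 were higher and 2 lower, 1 satellite cell marker was lower, and 0 markers of the other 4 lists passed that p in either direction. The levels of the endothelial, adipocyte, smooth muscle, lymphocyte and satellite cell lists also overlapped, with 2 to 4 markers of each higher in knockout. No marker passed over all genes, each of these ranges overlapped between genotypes, and the part of cell mixture in the values of the members was not tested. Wild type sample 4 was the lowest array for the macrophage and the fibroblast markers (8.32 and 10.53), and its fibre markers were at 14.29, against 14.23 to 14.28 on the others.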

How the data were processed

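Total RNA (150 ng, integrity number above 8) was amplified and labelled with biotin before hybridisation, per the labels. The deposited values are log2 signals, 1 per probe set and array, which the authors made with Affymetrix Expression Console 4.0, per the submitters' processing notes. The labels do not say how background, summarisation and normalization were done. That the scale is log2 was read from the values, which were not normalized again.

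Of 35556 probe sets, 21789 had exactly 1 symbol in the platform annotation. Where a gene had several, the probe set with the highest mean was taken, which left 19938 genes, and 4 members had a second probe set. Genotypes were compared across all genes with limma 3.58.1 in R 4.3.3 (lmFit, eBayes, genotype as the only term, Benjamini-Hochberg over all genes, threshold 0.05), with SE and 95% intervals from the moderated fit. The code was tested on simulated data. The number of arrays limits the precision.

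The members, the lists of related genes and of cell type markers and the tests were chosen with earlier results of these data known. Full statistics are given for members with an unadjusted p under 0.05 or no overlap of genotypes, for the smallest p in each of 11 role groups, and for the 6 related genes of smallest p. Alternatives were quantile normalization, median centring, the mean of all probe sets, genes under the 25th percentile of mean signal left out, a trended and robust eBayes, array weights, the replicate number as a block, and each array left out. A comparison of member proteins was planned and not run. Deviations of same-numbered arrays from their genotype means had correlations of 0.338, -0.115, -0.153 and 0.34 for numbers 1 to 4. Those of different-numbered arrays ran from -0.326 to 0.204, so numbers 1 and 4 deviated together more than any of these, and 2 and 3 did not. The labels do not say that the numbers pair samples, and they were not taken as pairs in the reported fit. Plots were drawn with matplotlib 3.10.9.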

Additional observations from a re-analysis of the deposited data

Results flagged for a closer look

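In 74 groups of 4 arrays (36 members and Hdac5, 2 genotypes), 4 held a sample far from the other 3 by Dixon's criterion, where chance flags about 1 in 20. Rcor1 and Mbd2 did so on wild type sample 4, at 9.09 against 9.36 to 9.40 and at 12.04 against 12.23 to 12.25. Hdac10 did so on knockout sample 4, at 9.06 against 9.21 to 9.23. Hdac5 was at 8.39 on knockout sample 4 against 8.31 to 8.32 on the other knockout arrays, still far below wild type.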

How the results depend on the processing

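Members called at an adjusted limma p under 0.05 numbered 0 in all 16 alternatives. Of 672 single-gene comparisons with the reported values (36 members and 6 related genes), 605 kept their direction and side of the threshold, 65 changed sign and 2 newly passed, both Tada2a. All 65 sign changes were of members, 22 of the 36, and none passed the threshold on either side. Their sizes were at most 0.062. Sirt3 was at -0.005 and Sirt7 at 0.009 after quantile normalization. With median centring Sirt7 was at 0.005, Crebbp at 0.009, Kat5 at 0.008 and Kat8 at 0.013. With the mean of the probe sets Mta3 was at -0.017 and Rbbp7 at -0.01. With array weights Sirt5 was at -0.011, Ep300 at -0.009, Kat6a at -0.018, Chd4 at -0.001 and Mbd3 at -0.024. Without both end arrays (an alternative chosen after seeing the data, which drops knockout sample 1 with wild type sample 4) Hdac8 was at -0.027, Sirt1 at -0.044, Sirt5 at -0.037, Sirt6 at -0.034, Ep300 at -0.048, Kat6a at -0.012, Kat7 at -0.049, Sin3a at -0.008, Sin3b at -0.029, Mta1 at -0.033, Chd4 at -0.01 and Mbd3 at -0.062. With 1 array left out, the members that changed sign ranged as follows: Hdac3 from -0.077 to 0.001, Hdac8 from -0.007 to 0.133, Sirt1 from -0.018 to 0.058, Sirt3 from -0.012 to 0.033, Sirt5 from -0.028 to 0.035, Sirt6 from -0.009 to 0.06, Sirt7 from -0.078 to 0.045, Ep300 from -0.029 to 0.028, Crebbp from -0.046 to 0.043, Kat2b from -0.061 to 0.006, Kat5 from -0.06 to 0.039, Kat6a from -0.021 to 0.055, Kat7 from -0.017 to 0.081, Kat8 from -0.045 to 0.046, Sin3b from -0.022 to 0.051, Mta1 from -0.003 to 0.069, Mta2 from -0.065 to 0.008, Chd4 from -0.014 to 0.037 and Mbd3 from -0.049 to 0.068. Wild type sample 4 turned the most members, 11, and each of the other arrays turned 3 to 5. The cause was not tested.

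Members higher at an unadjusted p under 0.05 numbered 1 with the mean of the probe sets, 0 without both end arrays and 0 to 2 with 1 array left out. Members with all knockout arrays above numbered 1 with the mean of the probe sets and 2 to 4 with 1 array left out, and those with all below 0 after quantile normalization, 4 without both end arrays and 1 to 2 with 1 left out. Members with a higher knockout mean numbered 15 without both end arrays and 16 to 31 with 1 left out. Related genes called numbered 1 with dim genes left out and 1 with a trended, robust eBayes. Related genes higher at an unadjusted p under 0.05 numbered 3 without both end arrays and 3 to 11 with 1 left out, and those lower 2 with array weights, 2 without both and 2 to 5 with 1 left out. With the replicate block, Hdac1 had an adjusted p of 0.407, 0 members passed and no call of a member or named related gene changed; over all genes 30 passed, against 13 without the block. Over all genes, 23 passed after quantile normalization, 36 with dim genes left out, 44 with a trended, robust eBayes, 31 with array weights, 5 to 20 with 1 array left out and 5 without both end arrays.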
